A study of Rattus rattus with 18 samples.

Results

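*Cd74* (ENSRNOG00000018735), *Tyrobp* (ENSRNOG00000020845) and *Capg* (ENSRNOG00000013668) are 3 of the 32883 genes counted in RNA of the rat hypothalamic arcuate nucleus (ARC). They were chosen by measured values. All 3 are among the genes that the study selected as differing between chow-fed and high-fat-fed sedentary rats, and *Tyrobp* is also among those it selected between a miR-211 mimic and a miR-211 inhibitor. In those contrasts their values are given as a description, with no p, and nothing is read from whether a tool called them. The question asked here is whether *Cd74*, which serves antigen presentation, moves apart from *Tyrobp*, a general gene of microglia.

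*Cd74* encodes the invariant chain, which holds newly made major histocompatibility complex class II molecules and guides them to the compartment where peptides are loaded. *Tyrobp* encodes DAP12, a membrane adaptor through which TREM2 and related receptors of microglia, monocytes and neutrophils signal to the kinase SYK. *Capg* encodes a protein of the gelsolin family that caps the growing ends of actin filaments and is abundant in macrophages. In the resting brain, class II molecules are scarce on parenchymal microglia and more abundant on macrophages along vessels and in the meninges.

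The 18 libraries came from female Wistar rats, were prepared by bulk MARS-seq, which sequences transcript ends, and fall into 5 groups described as biologically independent samples. In the DIO/voluntary running experiment, 3 CS rats (chow, sedentary), 3 HFS rats (a diet with 60% fat, sedentary) and 4 HFR rats (the same diet with a running wheel) were kept on their diet from postnatal day 21. They were raised in pairs until day 90 and then housed singly for 4 weeks with or without the wheel, and the experiment was run 2 times. Which run a library came from is not known, so run and group cannot be told apart. In the miR-211 experiment, chow-fed rats that arrived at postnatal day 60 all carried a cannula into a brain ventricle and were fasted overnight. MiRIDIAN hsa-miR-211 mimic (4 rats) or MiRIDIAN hsa-miR-211-hairpin inhibitor (4 rats) was infused in BrainFectIN as chow was returned, and the ARC was taken 6 h later. No uninfused or negative-control rats were analysed here, so mimic and inhibitor are compared only with each other. The experiments used different RNA kits and were analysed apart, and levels are not compared between them.

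Counts on genes ranged from 4680736 to 7494207 per library in the DIO experiment and from 1275263 to 6615927 in the miR-211 experiment. Levels are given as CPM, the counts scaled to a common library size with edgeR's TMM factors. The arcuate neuropeptide precursor gene *Pomc* was counted in every library, with at least 124 counts. The 10 listed microglial markers that could be looked up were also above 0 in every library, and so were all 3 genes. All 3 passed the filter on low counts in both experiments. Since transcript ends are counted, levels of different genes are not compared, apart from naming the gene with the most counts in a marker list, and ratios of the 3 genes are described only by their changes.

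Some libraries stood apart from their groups. Over 11892 genes, CS replicate 2 had a correlation of 0.980 with the mean of the HFS libraries and of 0.962 with that of the other CS libraries. HFR replicate 4 likewise had a correlation of 0.983 with the HFS mean and of 0.971 with that of the other HFR libraries. HFR replicate 3 was the DIO library least like its own group (0.9577) and was about as close to HFS (0.9585). HFR replicate 1 was about as close to CS (0.9720) as to the other HFR libraries (0.9715). CS replicates 1 and 3 had correlations of 0.9765 and 0.9684 with the HFR mean and of 0.9729 and 0.9646 with the other CS libraries. A mean over 3 or 4 libraries is less noisy than the mean of the 2 other CS libraries, so small gaps for CS libraries are not read. In the miR-211 experiment, inhibitor replicate 2 was the library least like the rest of its group, with a correlation of 0.954. Of the 10 DIO libraries, 8 matched an animal column of the published gene table, and CS replicate 2 and HFS replicate 2 matched none. All 10 libraries are used as labelled. The results of the 3 genes, their ratios and the list medians of HFR over CS are given again without these 2 libraries. No median over a whole list in HFS over CS or HFR over HFS had another sign without them. The cause was not tested.

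*Tyrobp*, the general microglial gene, varied little among the DIO libraries. Its level was 48.3, 75.4 and 60.3 CPM in the CS libraries, 82.8, 53.3 and 86.3 CPM in the HFS libraries and 47.1, 44.6, 60.5 and 63.2 CPM in the HFR libraries. HFS replicates 1 and 3 were the highest of the 10, CS replicate 2 came next, and the 3 groups overlapped. The means were 61.3 ± 13.6 (SD, n = 3) in CS, 74.1 ± 18.1 (n = 3) in HFS and 53.8 ± 9.37 (n = 4) in HFR. The log2 fold change of *Tyrobp* was 0.27 ± 0.22 (SE) in HFS over CS, which is a description since this contrast chose the gene. Without CS replicate 2 and HFS replicate 2 it was 0.65 ± 0.22, and the CS and HFS libraries left did not overlap. In a bulk sample, fewer cells of a type and less RNA per cell cannot be told apart.

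*Cd74* spread far more widely in the same libraries. Its level was 17.4, 87.3 and 19.5 CPM in the CS libraries, 93.5, 73.2 and 70.1 CPM in the HFS libraries and 7.78, 23.0, 14.1 and 39.3 CPM in the HFR libraries. All 3 HFS libraries and CS replicate 2 were high, and the 2 other CS libraries and all 4 HFR libraries were low. The HFS libraries thus lay within a 1.33-fold range, while the CS and HFR libraries spanned a 5.02-fold and a 5.05-fold range. HFS and HFR did not overlap, whereas CS overlapped both. The log2 fold change in HFS over CS was 0.92 ± 0.72 with all libraries and 2.15 ± 0.62 without CS replicate 2 and HFS replicate 2.

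*Capg* followed another order. Its level was 11.97, 24.95 and 20.4 CPM in the CS libraries, 69.5, 26.4 and 63.9 CPM in the HFS libraries and 26.5, 31.5, 27.1 and 28.1 CPM in the HFR libraries. HFS replicates 1 and 3 stood well above all the others, and HFS replicate 2 lay just below the lowest HFR library and just above the highest CS library. The HFR libraries were close together (28.3 ± 2.24 CPM, n = 4) and all lay above the 3 CS libraries. The log2 fold change in HFS over CS was 1.48 ± 0.33 with all libraries and 2.05 ± 0.26 without CS replicate 2 and HFS replicate 2.

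**Figure D1:**
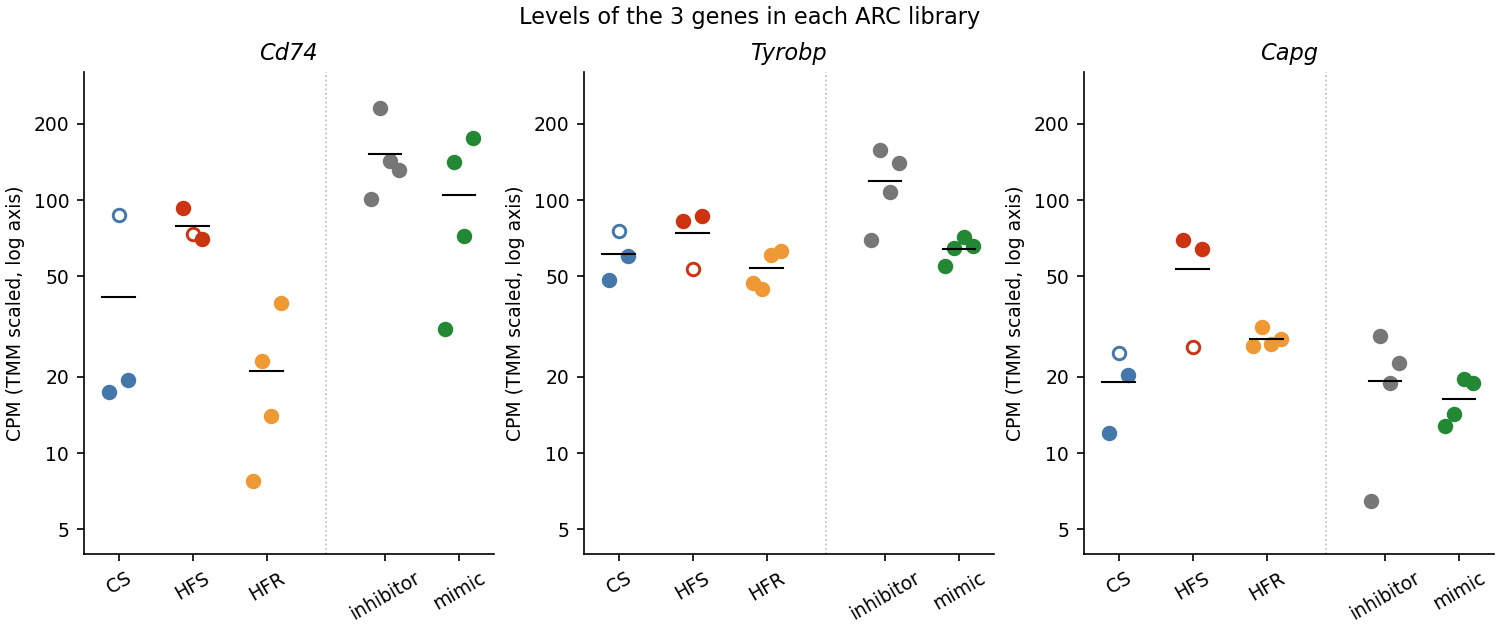
Level of each gene in each library in CPM on a log axis, by group, with a line at the group mean; open circles mark CS replicate 2 and HFS replicate 2, which matched no animal column of the published table. *Cd74* was between 70.1 and 93.5 CPM in HFS and between 7.78 and 39.3 CPM in HFR, while *Tyrobp* stayed between 44.6 and 86.3 CPM in all 10 DIO libraries.

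Across all genes, few passed the test in the DIO experiment, which needed an adjusted p under 0.1 in edgeR's two-sided quasi-likelihood test. Its p-values set a difference between groups against the spread between these libraries, estimated with information shared over all genes. In HFS over CS, the contrast that chose the genes, 1 of 11892 genes was called (0.00841%), 532 had an unadjusted p under 0.05, and DESeq2 called 2 of 19395 (0.0103%). The edgeR call was none of the 3 genes, whereas 1 of the 2 DESeq2 calls was *Capg*. Without CS replicate 2 and HFS replicate 2, 977 had an unadjusted p under 0.05, and without CS replicate 2 alone 1121 did. In the fit without both, 1 of 12003 genes was called (0.00833%) and it was *Capg*. Nothing is read from either call of *Capg*, because this contrast chose it.

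The question of HFR over HFS is whether the levels on the high-fat diet differed with running. In this comparison, 0 of 11892 genes were called by edgeR (0%), 504 had an unadjusted p under 0.05, and DESeq2 also called 0 of 19395 (0%). None of the 3 genes was called, so none can be said to have changed. The log2 fold change of *Cd74* was -1.88 ± 0.68 (edgeR, adjusted p = 0.989), with all 4 HFR libraries below all 3 HFS libraries. *Tyrobp* had a log2 fold change of -0.46 ± 0.20 (edgeR, adjusted p = 0.989) and *Capg* one of -0.91 ± 0.30 (adjusted p = 0.989), each with overlapping groups. Without the 2 libraries, 0 of 12003 genes were called (0%), 493 had an unadjusted p under 0.05, and the log2 fold changes were -1.93 for *Cd74*, -0.64 for *Tyrobp* and -1.23 for *Capg*, with no overlap between HFR and HFS for any of the 3. This comparison shares at least 2 of its 3 HFS libraries with the contrast that chose the genes, and genes chosen for a high HFS level lean towards a lower value in HFR.

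HFR over CS asks how far runners on the high-fat diet stood from chow-fed sedentary rats. edgeR called 2 of 11892 genes (0.0168%), with 509 at an unadjusted p under 0.05, and DESeq2 called 17 of 17582 (0.0967%). None of the 3 genes was among either. *Capg* had a log2 fold change of 0.57 ± 0.31 (edgeR, adjusted p = 0.995), with all 4 HFR libraries above all 3 CS libraries. It was 0.82 without the 2 libraries and 0.33 without CS replicate 1. *Tyrobp* had a log2 fold change of -0.19 ± 0.20 (edgeR, adjusted p = 0.995) with overlapping groups, and 0.00 without the 2 libraries.

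The HFR over CS value of *Cd74* turned on a single library. It was -0.96 ± 0.69 (edgeR, adjusted p = 0.995) with all libraries and 0.22 (adjusted p = 0.958) without CS replicate 2, and 0.22 as well without both set-aside libraries. Over all genes, 2 of 12003 were then called (0.0167%), none of them among the 3, and 708 had an unadjusted p under 0.05. HFR over CS and HFS over CS share the CS libraries, so their values are not independent of each other.

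**Figure D2:**
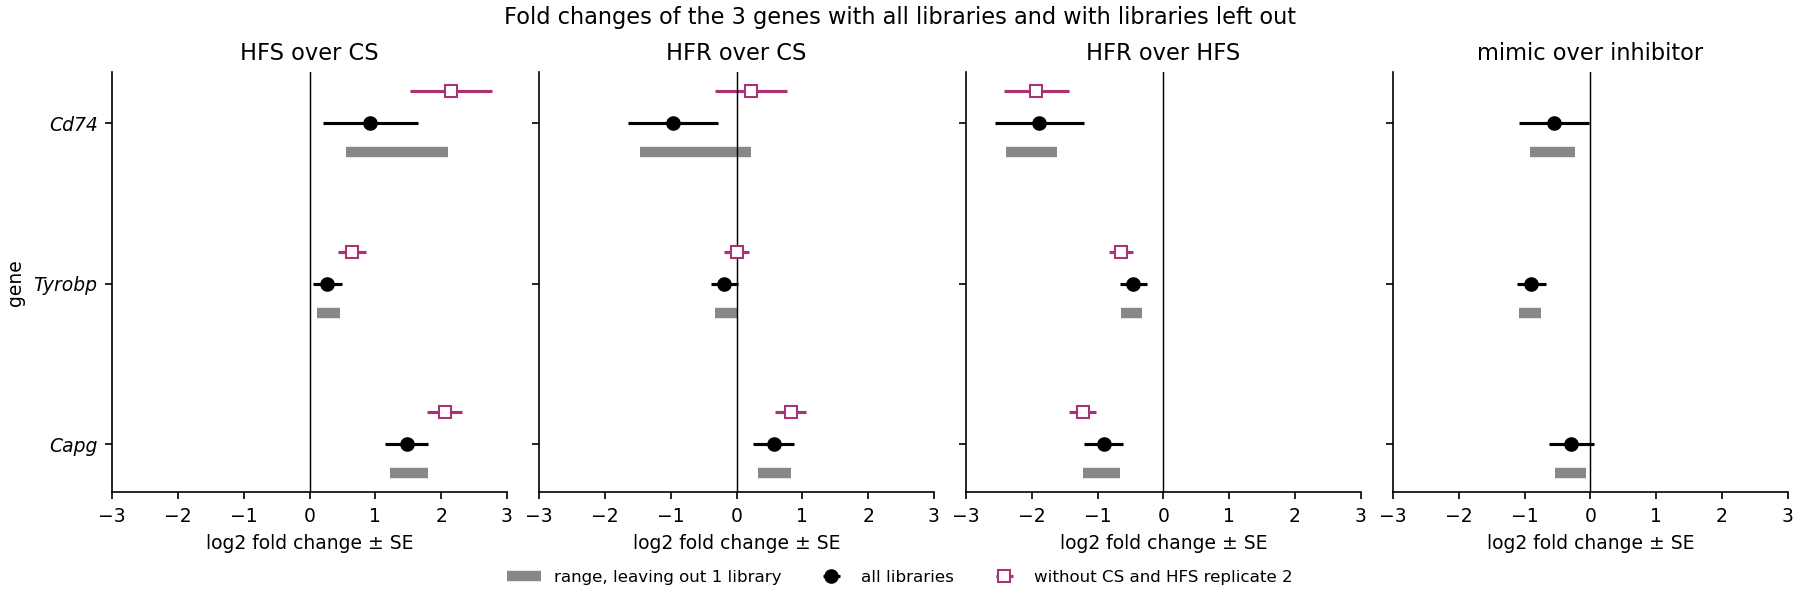
Log2 fold change ± SE of each gene in each comparison with all libraries (filled circles) and without CS replicate 2 and HFS replicate 2 (open squares), with grey bars for the range when each library was left out in turn. *Cd74* in HFR over CS ranged from -1.47 to 0.22, while in HFR over HFS it ranged from -2.39 to -1.62.

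The ratio of *Cd74* to *Tyrobp* in each library was used to ask whether the antigen presentation gene moved apart from the general microglial gene. In a bulk sample it does not tell which cells a change came from. On the log2 scale the ratio was -1.45, 0.21 and -1.61 in CS, 0.17, 0.46 and -0.30 in HFS and -2.54, -0.94, -2.08 and -0.68 in HFR. The HFS libraries and CS replicate 2 had the high ratios, and the HFR libraries all lay below the lowest HFS library. The mean ratio differed by -1.67 between HFR and HFS, lower in 4 of 4 HFR libraries. An exact two-sided permutation test gave p = 0.0571, and 0.114 after Benjamini-Hochberg adjustment over 4 tests. The first value is the smallest that this form of the test allows for 4 against 3 libraries. With these group sizes this form of the test therefore cannot reach 0.05. The test also reuses HFS libraries, at least 2 of 3 among the study's animals, in whose contrast with CS both genes were chosen, and a choice for high HFS values favours a lower HFR value, so nothing is concluded from this p. The mean ratio differed by -0.61 between HFR and CS (exact two-sided permutation p = 0.457, adjusted 0.457), with overlapping groups, and by -0.03 without CS replicate 2.

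Without the 2 set-aside libraries the ratio of *Cd74* to *Tyrobp* still differed by -1.50 between HFR and HFS, with no overlap. For 4 against 2 libraries the smallest p that this form of the exact permutation test allows is 0.133. Between HFS and CS the ratio differed by 1.06 with all libraries and by 1.47 without these 2, given as a description. In the 10 libraries as a whole, log2 CPM of *Cd74* and *Tyrobp* had a Pearson correlation of 0.72, and *Tyrobp* ranked 513 of the 11891 other genes tested by likeness to *Cd74*. All these values share libraries, depth and scaling.

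The ratio of *Capg* to *Tyrobp* gave another grouping. It was -1.98, -1.58 and -1.55 in CS, -0.25, -1.003 and -0.43 in HFS and -0.82, -0.50, -1.15 and -1.16 in HFR. The 3 CS libraries were the lowest of the 10, and HFS and HFR overlapped. The mean ratio differed by 0.80 between HFR and CS, higher in 4 of 4 HFR libraries (exact two-sided permutation p = 0.0571, adjusted 0.114). This p is again the smallest that this form of the test allows. *Capg* was chosen for low CS values, and the study's animals include at least 2 of these 3 CS libraries, which favours a higher HFR value, so nothing is concluded from this p either. Between HFR and HFS it differed by -0.34 (exact two-sided permutation p = 0.229, adjusted 0.305), and between HFS and CS by 1.14, as a description. Without the 2 libraries these differences were 0.86, -0.56 and 1.42, and the HFR over HFS difference was -0.19 without HFS replicate 1.

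**Figure D3:**
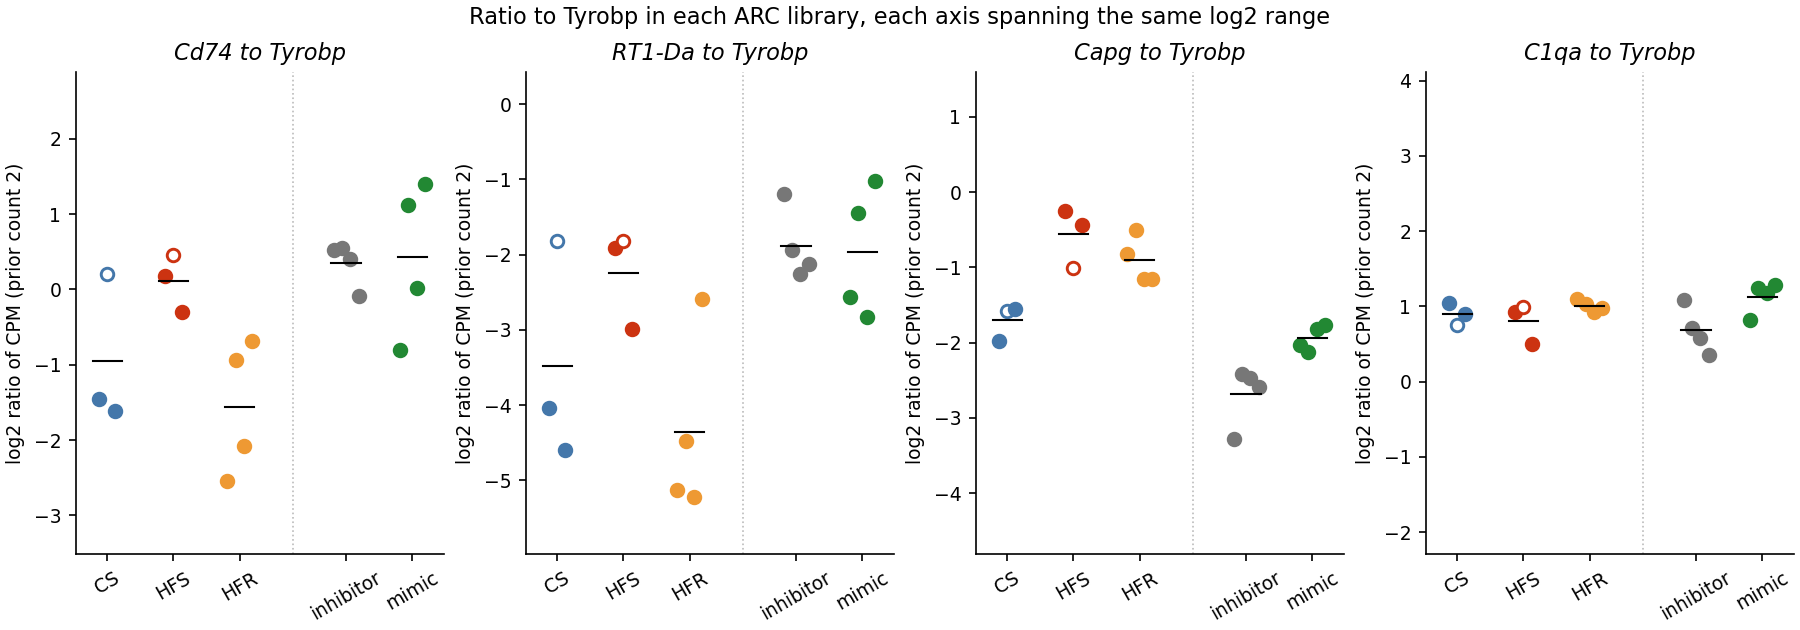
Log2 ratio of the CPM of *Cd74*, *RT1-Da*, *Capg* and *C1qa* to that of *Tyrobp* in each library, by group, with a line at the group mean, open circles for CS replicate 2 and HFS replicate 2, and vertical axes of equal span. The ratio lay between -2.54 and 0.46 for *Cd74* and between 0.50 and 1.10 for *C1qa* in the DIO libraries; the ratios of *C1qb* and *C1qc*, not drawn, spanned 0.23 to 1.62 and -0.84 to 0.51.

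Other class II genes show which of them shared the pattern of *Cd74*. *RT1-Da* encodes the alpha chain of a rat class II molecule, and its level was 2.62, 21.2 and 2.15 CPM in CS, 21.7, 14.9 and 10.6 CPM in HFS and 0.997, 1.66, 1.28 and 10.2 CPM in HFR. As for *Cd74*, the HFS libraries and CS replicate 2 were high, and HFR replicate 4 was the highest runner. The counts behind the low values were few, down to 5 in HFR replicate 1. Reads that align to more than 1 place were not counted, so levels of *RT1* genes, which have close relatives, are uncertain.

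*Ctsh*, a lysosomal protease listed with the class II genes, was 125, 210 and 119 CPM in CS, 234, 181 and 229 CPM in HFS and 111, 138, 210 and 191 CPM in HFR. Its range was narrower, the HFR libraries overlapped both other groups, and its order of libraries differed. HFR replicate 3, low for *Cd74* and *RT1-Da*, was the highest runner for *Ctsh* and lay above HFS replicate 2. The log2 fold changes in HFR over HFS were -2.06 ± 0.98 for *RT1-Da* and -0.40 ± 0.24 for *Ctsh*, neither called. The ratio of *RT1-Da* to *Tyrobp* differed by -2.12 between HFR and HFS and that of *Ctsh* by 0.00, both with overlap, and by -1.91 and 0.11 without the 2 libraries.

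In every list but that of monocytes and neutrophils, most of the genes tested had been chosen by the study in HFS over CS. That choice favours a move back in HFR over HFS, so counts of list genes in that comparison are not read as a result. Counted as lists, the 3 class II genes that could be looked up all had a higher value in HFS over CS, where the study chose every one of them (median log2 fold change 0.84, beside 0.00 for all genes). In HFR over HFS 3 of 3 were lower and 0 were called (median -1.88, beside -0.01 for all genes), and in HFR over CS 2 of 3 were lower (median -0.96, and 0.42 without the 2 libraries). The list is *Cd74*, *RT1-Da* and *Ctsh*, and the medians of -1.88 and -0.96 are the values of *Cd74* itself, so they add nothing to it. Of class I genes, which serve presentation to cytotoxic T cells, 4 were tested, namely *RT1-A2*, *RT1-M3-1*, *Tap1* and *Psmb9*. All 4 were lower in HFR over HFS (median -0.53) and 2 of 4 were lower in HFR over CS (median 0.02, and 0.40 with none lower without the 2 libraries), with 0 called in either. Their median in HFS over CS was 0.49, with all 4 chosen there.

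The general microglial genes did not form a uniform list. Over the list of 10 microglial markers, 8 were higher in HFS over CS (median 0.34, with 6 of the 10 chosen there and a median over the 4 not chosen of -0.01, which turned to 0.36 without the 2 libraries), 9 were lower in HFR over HFS (median -0.47) and 6 were lower in HFR over CS (median -0.09, and 0.15 without the 2 libraries), with 0 called. The summed level of the list was 446, 611 and 398 CPM in CS, 711, 603 and 672 CPM in HFS and 445, 428, 478 and 602 CPM in HFR. CS replicate 2 and HFR replicate 4 were again the highest of their groups. *C1qb* or *C1qa*, which encode subunits of complement C1q, had the most counts of the list in every DIO library.

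*Cd68*, which encodes a lysosomal protein of microglia and macrophages and is on the microglial list, shared part of the pattern of *Cd74*. It was 2.06, 6.06 and 0.215 CPM in CS, 10.2, 3.84 and 6.41 CPM in HFS and 0.997, 1.11, 2.56 and 3.53 CPM in HFR. All 4 HFR libraries lay below all 3 HFS libraries, though HFS replicate 2 was close to HFR replicate 4, unlike for *Cd74*. CS replicate 2 was again high, but counts of *Cd68* were few, from 1 to 59. Its log2 fold change was 1.26 ± 0.73 in HFS over CS, where it had not been chosen, -1.69 ± 0.68 in HFR over HFS and -0.43 ± 0.72 in HFR over CS, none called. Without the 2 libraries these were 2.81, -1.97 and 0.83. In HFR over HFS with all libraries, *Cd68* thus had a fold change near that of *Cd74*, though neither was called. The rest of the microglial list lay between -0.70 and 0.05. By these values *Cd74* cannot be said to stand apart from all general microglial genes.

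Complement, which tags material for uptake by microglia, was examined over 8 genes, including the C1q subunits also counted as microglial. *Serping1* among them is also on the vessel wall and fibroblast list. All 8 were lower in HFR over HFS (median -0.62) and 5 of 8 were lower in HFR over CS (median -0.11, and 0.42 without the 2 libraries), with 0 called. All 8 had been chosen by the study in HFS over CS, where the median was 0.59, and this choice favours lower values in HFR over HFS. *C3*, the central complement component, had a log2 fold change of -1.06 ± 0.25 in HFR over HFS and did not pass the test. The ratio of *C1qa* to *Tyrobp* had a mean of 0.90 ± 0.14 in CS, 0.81 ± 0.27 in HFS and 1.01 ± 0.08 in HFR, so it differed by 0.20 at most between groups with all libraries. Without the 2 libraries it differed by 0.29 in HFR over HFS and by -0.26 in HFS over CS. The other subunits varied more, with differences of 0.45 for *C1qb* and 0.54 for *C1qc* in HFS over CS and of -0.10 and -0.30 in HFR over HFS, all with overlap. Without the 2 libraries the HFR over HFS difference turned to 0.11 for *C1qb* and was -0.14 for *C1qc*.

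*Gsn*, which encodes gelsolin, was the other gelsolin family gene with an identifier. It was 79.7, 113 and 66.5 CPM in CS, 216, 108 and 140 CPM in HFS and 88.5, 89.7, 121 and 145 CPM in HFR. HFS replicate 1 stood above the rest, as for *Capg*, but the HFR libraries overlapped both other groups. The family's median was 1.16 in HFS over CS, where both genes were chosen, -0.69 in HFR over HFS and 0.46 in HFR over CS (0.72 without the 2 libraries). Of 19 other actin filament genes, 17 were lower in HFR over HFS (median -0.38) and 11 in HFR over CS (median -0.01, and 0.39 without the 2 libraries). In HFS over CS 17 of the 19 were higher (median 0.30), and 17 had been chosen there. *Tagln*, *Myl9* and *Lmod1* among the 19 are also on the vessel wall and fibroblast list.

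Among partners of the 3 genes, *Cd44*, a coreceptor of *Cd74*, and *Csf1*, the growth factor of microglia, were tested in the DIO experiment. The median of these 2 was 0.59 in HFS over CS, where both were chosen, -0.18 in HFR over HFS and 0.42 in HFR over CS (0.63 without the 2 libraries). *Trem1*, a receptor that signals through *Tyrobp*, had at most 1 count in any DIO library and was not tested there.

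**Figure D4:**
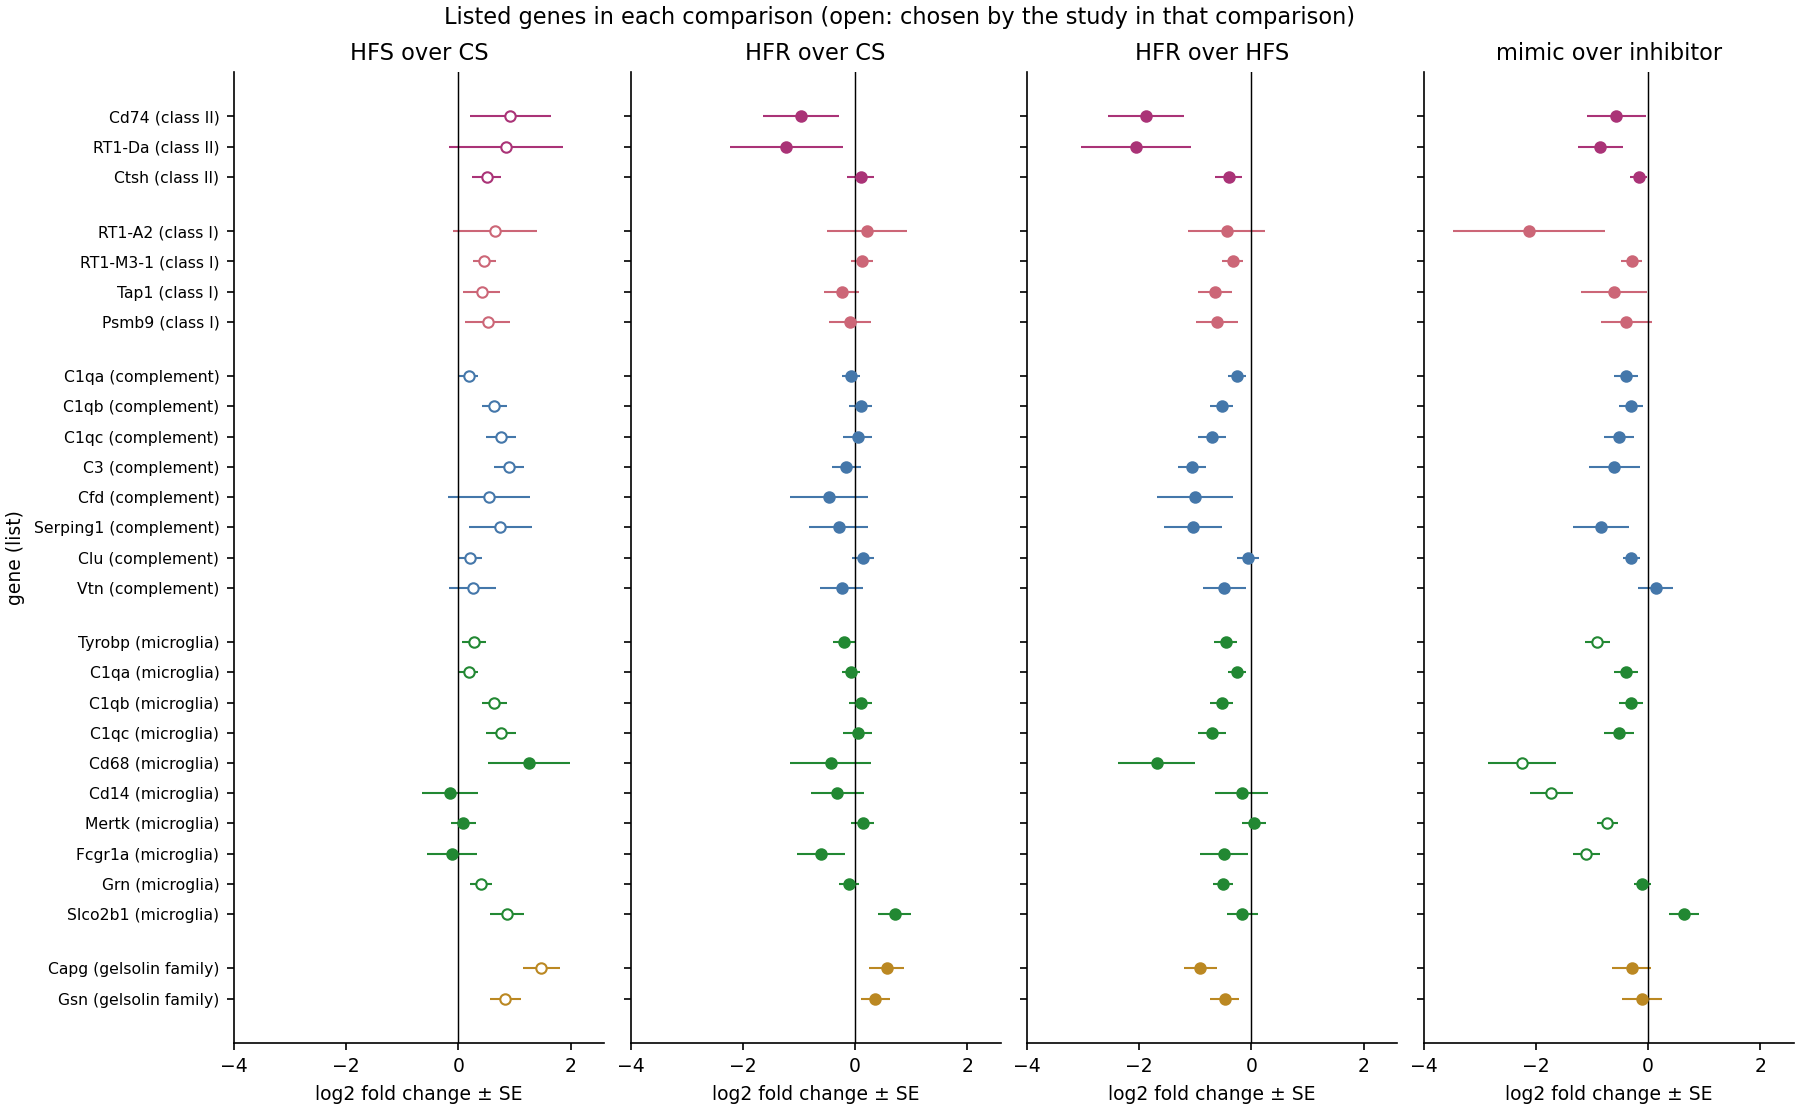
Log2 fold change ± SE of the class II, class I, complement, microglial and gelsolin family genes in the 4 comparisons, with open circles where the study had chosen the gene in that comparison. In HFR over HFS, *Cd74* and *RT1-Da* were at -1.88 and -2.06, *Cd68* at -1.69, *C3* and *Serping1* at -1.06 and -1.04, and the C1q genes between -0.70 and -0.25.

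Of the markers of other cell types, those of vessel wall and fibroblasts had an order of DIO libraries near that of *Cd74*. The summed level of 12 vessel wall and fibroblast genes was 271, 807 and 260 CPM in CS, 725, 568 and 621 CPM in HFS and 220, 359, 364 and 581 CPM in HFR. As for *Cd74*, CS replicate 2 and the HFS libraries were high, and HFR replicate 4 was the highest runner. Unlike for *Cd74*, HFR replicate 4 (581 CPM) lay above HFS replicate 2 (568 CPM), so HFR and HFS overlapped. *Aebp1*, which encodes an extracellular protein of fibroblasts and vessel walls, had the most counts of the list in CS replicate 2, HFS replicates 1 and 2 and HFR replicate 4. None of the 12 was at 0 in any DIO library. In HFR over HFS 11 of 12 were lower (median -0.92, 0 called), in HFR over CS 9 of 12 (median -0.27, and 0.50 without the 2 libraries), and in HFS over CS 11 were higher (median 0.68), with all 12 chosen there.

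Astrocyte markers, 4 genes with the most counts on *Gfap* or *Gpr37l1*, summed to 1341, 2235 and 1263 CPM in CS, 3590, 1883 and 2999 CPM in HFS and 1072, 1833, 2448 and 2514 CPM in HFR. CS replicate 2 was again the high one in CS, and the groups overlapped. Their median was 0.49 in HFS over CS (3 of 4 chosen), -0.41 in HFR over HFS and 0.13 in HFR over CS (0.58 without the 2 libraries). The 3 oligodendrocyte genes, led by *Mbp*, and the 9 neuronal genes had all been chosen in HFS over CS. In the same order of comparisons, the oligodendrocyte medians were 0.73, -0.43 and 0.39, and the neuronal medians -0.17, 0.21 and 0.08. Without the 2 libraries the last was 0.60 for oligodendrocytes and turned to -0.12 for neurons, with 7 of 9 lower in place of 7 of 9 higher. The oligodendrocyte genes summed to 8370, 13232 and 10224 CPM in CS, 19965, 17787 and 13085 CPM in HFS and 15545, 11070, 13235 and 15496 CPM in HFR. Unlike for *Cd74*, HFR replicate 1 was the highest runner, and HFS replicate 3 lay below HFR replicates 1, 3 and 4. The part of these cell types in the results was not tested.

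Some markers of monocytes and neutrophils had few or no counts in the DIO libraries. *Plaur* and *Mcemp1* were at 0 counts in all 10, and *S100a8*, a defining marker of neutrophils, had at most 6 counts in any library. The summed level of 14 monocyte and neutrophil genes was 85.9, 160 and 128 CPM in CS, 166, 135 and 202 CPM in HFS and 71.6, 89.4, 111 and 170 CPM in HFR, mostly from *Lyz2*, which microglia and macrophages also express. CS replicate 2 and HFR replicate 4 were the highest of their groups, and the groups overlapped. The medians of the 5 genes tested were 0.39 in HFS over CS, -0.30 in HFR over HFS and 0.06 in HFR over CS (0.45 without the 2 libraries). *Ccl5*, the single B and T cell list gene with an identifier, had at most 37 counts in a DIO library and log2 fold changes of 0.68, -0.89 and -0.21 in that order, and it was chosen in the first of these. The last turned to 0.60 without the 2 libraries.

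Of the 3 genes only *Tyrobp* was chosen in the miR-211 experiment, which favours a large value there. With all libraries *Tyrobp* had the largest fold change of the 3. Its level was 54.8, 64.6, 71.2 and 66.0 CPM in the mimic libraries and 69.4, 158, 108 and 140 CPM in the inhibitor libraries. Inhibitor replicates 2, 3 and 4 were high, while inhibitor replicate 1 lay among the mimic libraries. The means were 64.2 ± 6.85 (n = 4) for mimic and 119 ± 39.1 (n = 4) for inhibitor, and the log2 fold change was -0.90 ± 0.22, a description since this contrast chose the gene.

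*Cd74* overlapped widely between the treatments. It was 31.0, 141, 72.1 and 176 CPM in the mimic libraries and 101, 232, 142 and 132 CPM in the inhibitor libraries. Mimic replicates 1 and 3 were the lowest of the 8, but mimic replicates 2 and 4 lay among the inhibitor libraries. The log2 fold change was -0.56 ± 0.53 (adjusted p = 0.815 in edgeR's test), close to its own SE, and it was -0.24 without mimic replicate 1 and -0.91 without mimic replicate 4. The mimic libraries spanned a 5.68-fold range, against 1.30-fold for *Tyrobp* in the same 4.

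*Capg* was 12.8, 14.2, 19.6 and 18.9 CPM in the mimic libraries and 6.49, 29.0, 18.9 and 22.7 CPM in the inhibitor libraries. The lowest and the highest value were both of inhibitor libraries, and the groups overlapped. Its log2 fold change was -0.29 ± 0.35 (adjusted p = 0.857 in edgeR's test), and it was -0.54 without inhibitor replicate 1 and -0.07 without inhibitor replicate 2. Counts were few, with 10 in inhibitor replicate 1, for which an exact 95% Poisson interval is 4.80 to 18.4 counts and covers counting error only.

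Over all genes, 43 of 9625 were called between mimic and inhibitor at an adjusted p under 0.05 (0.447%), 1 higher and 42 lower with mimic, and DESeq2 called 205 of 11338 (1.81%). Neither *Cd74* nor *Capg* was called by either tool. *Tyrobp* was among the DESeq2 calls and not among those of edgeR, and nothing is read from this because the contrast chose it. The edgeR count rested on single libraries, since it was 0 without mimic replicate 1 or without mimic replicate 3 and 111 without inhibitor replicate 1.

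The ratio of *Cd74* to *Tyrobp* was -0.81, 1.12, 0.02 and 1.405 in the mimic libraries and 0.53, 0.55, 0.40 and -0.09 in the inhibitor libraries, on the log2 scale. The mimic values surrounded the inhibitor values, and the means differed by 0.08. The direction of that small difference changed when a single library was left out, with -0.24 without mimic replicate 4, -0.14 without mimic replicate 2 and -0.06 without inhibitor replicate 4. The ratio of *Capg* to *Tyrobp* was -2.03, -2.12, -1.82 and -1.77 with mimic and -3.28, -2.42, -2.47 and -2.59 with inhibitor. All 4 mimic libraries lay above all 4 inhibitor libraries, and the means differed by 0.75. Neither ratio was tested, because this contrast chose *Tyrobp*, and a gene chosen for a low value with mimic raises every ratio to it there.

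Some other genes, though not all those examined, also had a higher ratio to *Tyrobp* with mimic. The ratio was higher by 0.70 for *Ctsh* and by 0.58 for *C1qb*, each with no overlap. It was higher by 0.45 for *C1qa* and by 0.36 for *C1qc*, each with overlap, and it differed by -0.08 for *RT1-Da*. None of these 5 genes had been chosen in this contrast. Their own log2 fold changes were -0.16 ± 0.15, -0.30 ± 0.22, -0.39 ± 0.21, -0.52 ± 0.26 and -0.85 ± 0.40, in that order, and none was called.

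Among the 10 microglial markers, 9 were lower with mimic (median -0.62, beside 0.01 for all genes), and 5 of them had been chosen by the study in this contrast, including *Cd68* and *Cd14*. The 5 not chosen had a median of -0.30, with 4 lower and 0 called. Complement genes were lower for 6 of 7 (median -0.39), class II genes for 3 of 3 (median -0.56) and class I genes for 4 of 4 (median -0.49), with 0 called in each. The class II median is again the value of *Cd74* itself and adds nothing to it. The gelsolin family had a median of -0.20 and the other actin filament genes one of -0.44, with 15 of 16 lower, 4 of them chosen. The partners *Cd44*, which was chosen, and *Csf1* had log2 fold changes of -1.57 ± 0.50 and -0.83 ± 0.25, and neither was called.

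Markers of monocytes and neutrophils had an order of inhibitor libraries like that of *Tyrobp* in this experiment. Both they and *Tyrobp* had been chosen by the study in this contrast, which favours such a likeness. The summed level of the 14 genes was 227, 248, 285 and 358 CPM in the mimic libraries and 381, 2054, 893 and 1323 CPM in the inhibitor libraries. As for *Tyrobp*, inhibitor replicate 2 was the highest library, replicates 4 and 3 came next, and inhibitor replicate 1 was close to the mimic libraries. *Lyz2* had the most counts of the list in each library, between 129 and 185 CPM with mimic and between 205 and 1049 CPM with inhibitor. *S100a8* was 6.85, 1.90, 2.99 and 1.57 CPM with mimic and 4.54, 68.2, 28.5 and 64.4 CPM with inhibitor. In the mimic libraries *Trem1*, *Mcemp1*, *Plaur* or *Stx11* was at 0 in replicates 1, 2 and 4, and none of the list was at 0 in an inhibitor library. The order was not particular to this list. The microglial list, which holds *Tyrobp*, summed to 450, 547, 601 and 581 CPM with mimic and 526, 1062, 666 and 837 CPM with inhibitor. *C1qa*, *C1qb* and *C1qc*, not chosen in this contrast, also had inhibitor replicate 2 highest, then replicates 4, 3 and 1.

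All 7 of the monocyte and neutrophil genes that passed the filter were lower with mimic (median -1.95) and 0 were called, but all 14 had been chosen by the study in this contrast. Their part in the value of *Tyrobp* was not tested. Without inhibitor replicate 2, the log2 fold change of *Tyrobp* was -0.75, and over all libraries left out in turn it lay between -1.08 and -0.75. *Ccl5* had a log2 fold change of -1.57, with 95.8 CPM in inhibitor replicate 2 and at most 22.8 CPM in any other library. The vessel wall and fibroblast list had a median of -0.36 (8 of 9 lower), the astrocyte list 0.10, the oligodendrocyte list -0.26 and the neuronal list 0.16, with 0 called in each. The first 2 of these lists each held 1 gene chosen in this contrast. Over their genes not chosen, the median was -0.24 for vessel wall and fibroblasts and turned to -0.13 for astrocytes.

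**Figure D5:**
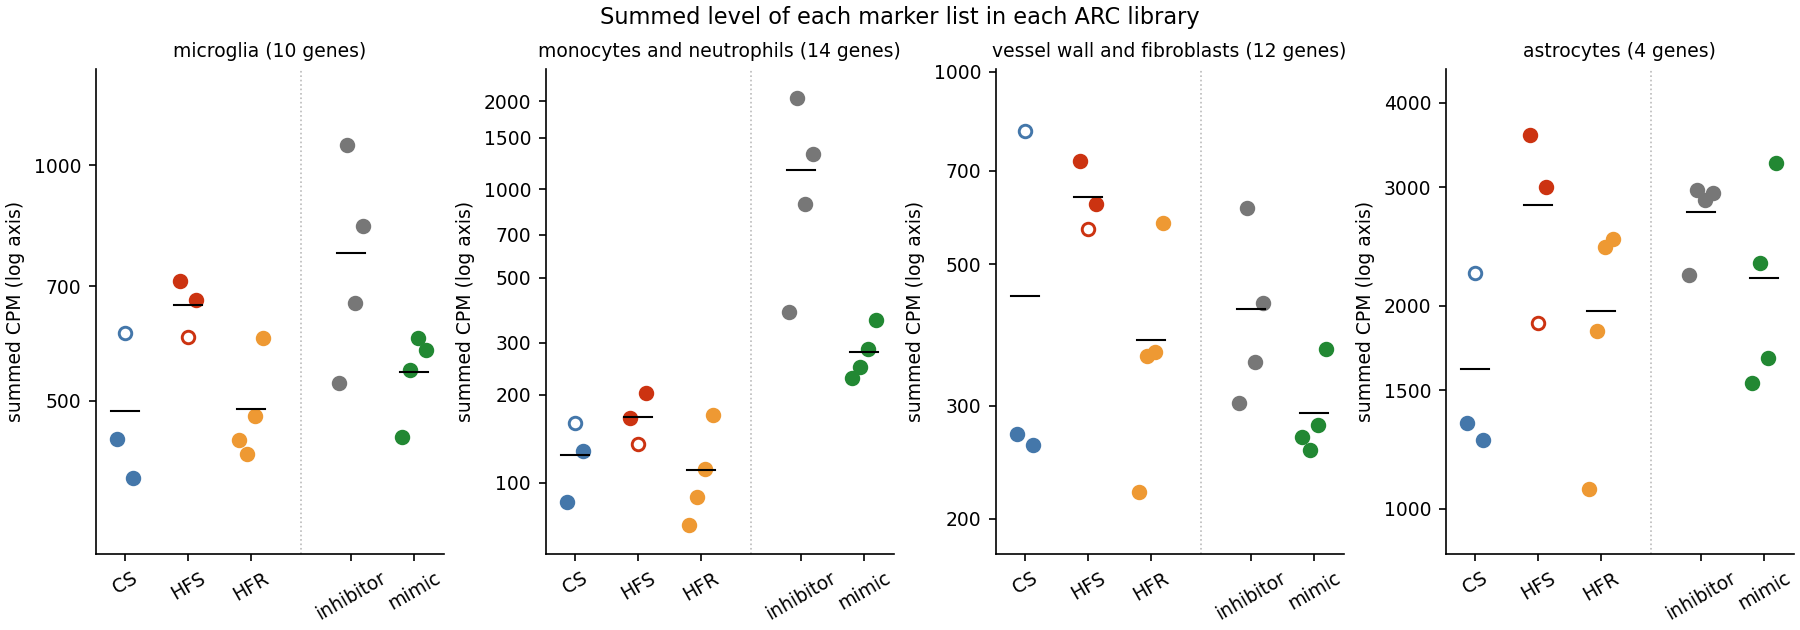
Summed CPM on a log axis of the marker lists of microglia, monocytes and neutrophils, vessel wall and fibroblasts, and astrocytes in each library, by group, with a line at the group mean and open circles for CS replicate 2 and HFS replicate 2. The monocyte and neutrophil list reached 2054 CPM in inhibitor replicate 2 and at most 358 CPM in a mimic library, and the vessel wall list was 807 CPM in CS replicate 2 against 260 and 271 CPM in the other CS libraries.

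The genes whose levels most resembled each of the 3 were ranked by the Pearson correlation of log2 CPM over the libraries of an experiment. Symbols were at hand for 606 genes, all of them from the study's own lists of selected genes, so the ranks among all genes tested are given as well. Over the 10 DIO libraries *Cd74* was most like *RT1-Da* (0.96, rank 2 of 11891), *Adamts2*, *Niban2*, *Fbln1* and *Serping1* (0.95, rank 11). *Fbln1* and *Serping1* are on the vessel wall and fibroblast list. *Tyrobp* was most like *Vsir* (0.94, rank 1), an immune checkpoint gene of myeloid cells, *Oaf*, *Ggcx*, *Rhpn1* and *Cyp26b1* (0.90, rank 9). *Capg* was most like *Olfml2b* (0.85, rank 4), *Plod1*, *Atf3*, *Creb3l1* and *Gstt3* (0.81, rank 21).

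Over the 8 libraries of the miR-211 experiment, *Cd74* was most like *Lman2* (0.92, rank 14 of 9624), *Gfap*, *RT1-Da* (0.88, rank 32), *C1qa* and *Clu*. *RT1-Da* was thus among the 5 most similar named genes in both experiments by Pearson correlation, but by Spearman's rho it was among them in the DIO experiment only. *Tyrobp* was most like *Ccl19* (0.99, rank 1), *Srgn*, *G0s2*, *Lyz2* (0.98, rank 4) and *Arid5a*, all of which the study had chosen in that contrast. *Capg* was most like *Grn* (0.87, rank 38), *Tgfbi*, *Ctsh*, *Ddx49* and *Cryba4*. *Cd74* and *Tyrobp* had a correlation of 0.62 over these 8 libraries, *Capg* and *Tyrobp* one of 0.66, and *Cd74* and *Capg* one of 0.45. Points from the same libraries share depth and scaling, and no p is given.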

How the data were processed

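The count files of 18 libraries were used as deposited. The authors trimmed reads with Cutadapt, aligned them with STAR 2.7.9a, removed duplicates with SAMtools and counted reads per gene with HTSeq 0.13.5, using no strand. Per the file names the miR-211 counts had UMI correction, and for the DIO counts this is not stated. In the DIO libraries 22.4% to 26.3% of reads fell on no gene, 17.2% to 20.6% aligned to more than 1 place and 1.751% to 2.123% were ambiguous.

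Each experiment was fitted on its own with edgeR 4.0.16 (TMM, filterByExpr, quasi-likelihood, Benjamini-Hochberg over all genes tested), in R 4.3.3 with limma 3.58.1. DESeq2 1.42.0 was the second tool. Ratios and figures used Python 3.11.15, numpy 2.4.6, scipy 1.17.1 and matplotlib 3.10.9. TMM factors lay between 0.976 and 1.04. Ratios to *Tyrobp* were tested by exact permutation only where no gene in them had been chosen by the contrast.

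The members and lists were chosen with earlier results of these data known. Lists covered microglia, monocytes and neutrophils, B and T cells, astrocytes, vessel wall and fibroblasts, oligodendrocytes, neurons, class II, class I, complement, gelsolin family, other actin filament genes and partners of *Cd74* and *Tyrobp*. A gene was named if it was 1 of the 3, on a list, or among the 5 most alike with a symbol. Symbols came only from the published gene tables, so listed genes outside them were not looked up. Alternatives were DESeq2, other scaling factors, other filters, a replicate block, fits of only the 2 groups compared, each library left out, another prior count and Spearman's rho. List medians under other scaling and without 2 libraries were added after seeing the data. The sample labels name *Rattus rattus*, whereas Wistar rats are *Rattus norvegicus*. Promoters were not analysed here.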

Additional observations from a re-analysis of the deposited data

How the results depend on the processing

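Of 204 alternative fold changes of the 3 genes, 4 were reversed, 3 differed by more than 1 SD between libraries where the contrast had chosen the gene, and the other 197 kept their direction and, where tested, their side of the threshold. The sizes of those 197 still varied. Without CS replicate 2, *Cd74* was 2.10 in HFS over CS and reversed to 0.22 in HFR over CS, and *Tyrobp* reversed to 0.0026 in HFR over CS. Without CS replicate 2 and HFS replicate 2 these values were 2.15, 0.22 and 0.0013, and *Tyrobp* in HFS over CS was 0.65. With libraries left out in turn, *Cd74* lay between 0.55 and 2.10 in HFS over CS and between -1.47 and 0.22 in HFR over CS, and *Tyrobp* in HFR over CS between -0.32 and 0.0026, and *Tyrobp* in HFS over CS between 0.12 and 0.46. Of 86 alternative ratio differences 83 kept their direction, though their sizes varied and that of *Cd74* in HFR over CS went from -0.61 to -0.03 without CS replicate 2. The 3 reversed were of *Cd74* to *Tyrobp* in mimic over inhibitor, -0.14, -0.24 and -0.06 without mimic replicate 2, mimic replicate 4 or inhibitor replicate 4, in a range from -0.24 to 0.50. The count of genes called in HFS over CS was 2 by DESeq2, 0 with only the 2 groups compared and 0 to 2 with libraries left out. In HFR over CS it was 17 by DESeq2, 8 with all genes of at least 1 count, and 0 to 3 with libraries left out (0 without CS replicate 1, 1 without HFR replicate 2). In mimic over inhibitor it was 205 by DESeq2, 125 with all genes of at least 1 count, and 0 to 111 with libraries left out (0 without mimic replicate 1 or 3, 2 without mimic replicate 2, 13 without mimic replicate 4, 111, 26 and 1 without inhibitor replicates 1, 2 and 4). Without CS replicate 2 and HFS replicate 2, list medians in HFS over CS were 0.60 for microglia, with 10 of 10 higher, -0.42 for neurons, 0.76 for monocytes and neutrophils, 1.83 for B and T cells, 1.07 for astrocytes, 1.43 for vessel wall and fibroblasts, 2.15 for class II, 1.10 for class I, 1.10 for complement, 1.67 for the gelsolin family, 0.75 for other actin filament genes and 0.93 for partners. In HFR over CS they were 0.45 for monocytes and neutrophils, 0.58 for astrocytes, 0.50 for vessel wall and fibroblasts, 0.42 for class II and 0.42 for complement. Signs there also turned for microglia (0.15), B and T cells (0.60), neurons (-0.12) and other actin filament genes (0.39). By Spearman's rho, 2, 2 and 0 of the 5 genes most like *Cd74*, *Tyrobp* and *Capg* were shared in the DIO experiment and 2, 3 and 2 in the miR-211 experiment. The cause was not tested.

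With a replicate block the count of genes called was 0 in HFS over CS, 0 in HFR over CS and 2 in HFR over HFS. It was 52 in mimic over inhibitor, 29 of them shared with the fit without a block. Deviations from the group means were correlated between libraries of different groups. In the DIO experiment r was -0.124 to 0.151 for the same number (2 of 9 over 0.1) and -0.229 to 0.219 for different numbers (4 of 24 over 0.1). In the miR-211 experiment it was 0.050 to 0.214 (1 of 4 over 0.1) and -0.286 to 0.194 (2 of 12 over 0.1). With so few pairs these values do not settle whether the numbers pair the animals.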
